A study of Mus musculus with 8 samples.

Results

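The genes examined were 10 regulators and markers of mesenchymal transition. They were the Snail family zinc-finger factors Snai1, Snai2 and Snai3, the basic helix-loop-helix factors Twist1 and Twist2, the zinc-finger homeobox factors Zeb1 and Zeb2, the paired-related homeobox factor Prrx1, the forkhead factor Foxc2, and Vim, which encodes the intermediate filament protein vimentin. The genes were selected by symbol, and all 10 were found among the 23284 symbols listed in each table of counts. RNA-sequencing was performed on ID8 IP2 cells, a mouse ovarian surface epithelial tumor line obtained by passing ID8 cells through C57BL/6 mice, here carrying luciferase and mCherry. Control lines received lentivirus made from the empty pCCL vector, and Notch3IC lines received a pCCL lentivirus encoding the HA-tagged intracellular domain of Notch3 ahead of an IRES and GFP. The lines were made by separate infections that each gave a matched Control and Notch3IC line, called a set, and 1 library of each line was available for Sets 1 to 4, giving 4 Control and 4 Notch3IC libraries. Later testing pointed to mycoplasma in all of the ID8 IP2 lines, Control and Notch3IC alike. The comparison asks how continuous Notch3 signaling changes the transcripts of these 10 genes, across the groups and within each set.

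In mesenchymal transition, cells of an epithelial type loosen their junctions and take up the adhesion, matrix and cytoskeletal genes of mesenchymal cells. Snail and Zeb factors bind E-box sequences and repress epithelial genes such as the E-cadherin gene Cdh1, Twist factors act as dimers with E proteins, and Prrx1 and Foxc2 drive mesenchymal gene expression in development and in tumors. Vimentin is the main intermediate filament of mesenchymal cells and the most used marker of the mesenchymal state. Ovarian surface epithelium is itself a mesothelium that carries both keratins and vimentin.

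Library totals ranged from 15524262 counts in the Notch3IC library of Set 2 to 28208072 in the Control library of Set 4. Levels are given as normalised counts, the counts scaled to a common library size with the TMM method. Notch3, the expressed insert, was read first as a check of the labels. Ordered from Set 1 to Set 4, Control held 38.7, 40.6, 70.8 and 42.0 normalised counts and Notch3IC 4322, 467, 9220 and 5842. Every Notch3IC library was thus above every Control library, and the Notch3IC library of Set 2 was the lowest of its group. The Notch target Hey1 followed the same order, with 438 normalised counts in the Notch3IC library of Set 2 and 4079 or more in those of the other sets. The Notch target Heyl had 1.98 or fewer normalised counts in every Control library and 2155, 215, 6860 and 3910 in Notch3IC. The target Nrarp had 33.5 or fewer in every Control library and 3840, 221, 6033 and 4043 in Notch3IC. Set 1 stood apart in another way, since both of its libraries held the highest Snai1 and Vim levels of their group. For these reasons values are given by set, and calls are given with and without single libraries and sets.

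The labelled origin was checked with markers of ovarian surface epithelium and mesothelium. Wt1, a transcription factor of this epithelium, ranged from 3510 to 16410 normalised counts, and the uroplakin gene Upk3b from 993 to 31801. Krt8 ranged from 1343 to 4067. In contrast, Krt7 did not exceed 44.0 normalised counts and Epcam, an adhesion molecule of simple epithelia, did not exceed 9.51 in any library.

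Of the 10 genes, 8 were expressed at a level that could be tested. All 8 had a log2 fold change above 0, as did 48.4% of the 12430 genes tested. The median of the 8 was 0.61, against -0.01 for all genes tested. Calls used the thresholds of the study, an adjusted p under 0.1 together with a change of 1 or more on the log2 scale. By this rule Snai2, Zeb2 and Prrx1 rose in Notch3IC, 3 of 8 (37.5%), where 3.4% of all genes tested were called higher. None of the 10 was called lower, in edgeR or in DESeq2, where edgeR called 0.74% of all genes tested lower. At an unadjusted p under 0.05, 5 of the 8 were higher and 0 lower, where 11.8% of all genes were higher and 6.65% lower at this level. The 4 libraries of each group did not overlap for 2 of the 8 (Snai2 and Zeb1, both higher in Notch3IC), against 7.08% of all genes higher and 3.75% lower. Notch3IC was above Control in 4 of 4 sets for 7 of the 8 genes, all but Twist1, against 21% of all genes. With the set as a block, the same 7 genes had an adjusted p under 0.1 at any fold, against 14.9% of all genes, and the same 3 were called. In fits added after seeing the data, with the block and Set 3 or Set 4 left out, 0 of the 7 had an adjusted p under 0.1 (0.134 to 0.206, edgeR), and with Set 1 left out Snai1 alone did (adjusted p = 0.0992). The sets are separate infections of 1 line. The main fit does not use the pairing, and its p-values set the difference against the spread between the lines of a group. Those of the block fit set it against the spread of the differences within sets. Neither covers the spread between other cell lines.

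**Figure D1:**
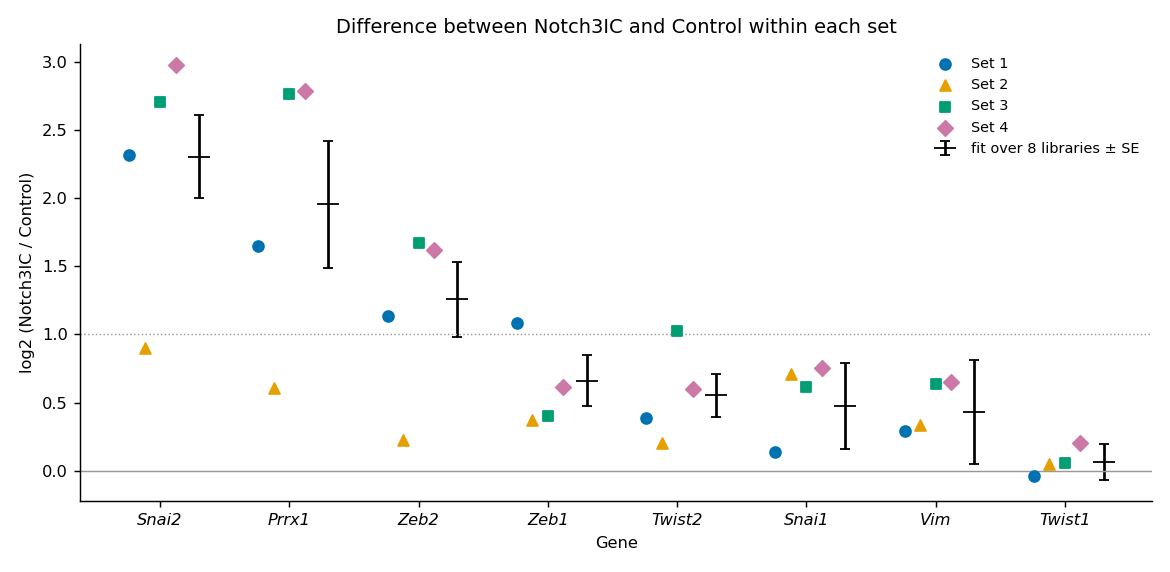
The vertical axis gives the log2 ratio of Notch3IC to Control, with a colored symbol for each of Sets 1 to 4 and a black line with its standard error for the fit over the 8 libraries, for the 8 genes tested. Ratios of Snai2, Prrx1 and Zeb2 lie above 1 (dotted line) in Sets 1, 3 and 4 and below it in Set 2, while Twist1 lies close to 0 in all 4 sets.

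The promoters of 3 of the genes are shown with 2 motifs, the E-box CACCTG that Snail and Zeb factors bind and TGGGAA, the core of the site of Rbpj, the DNA-binding partner of the Notch intracellular domain. Windows of 250 bases before the start site were taken from RefSeq (GRCm38.p6) for 6 of the genes (Snai1, Twist1, Twist2, Zeb2, Prrx1 and Vim, the others not being used here), and both strands were searched. The 2 motifs do not overlap each other. CACCTG was found in the window of Snai1 alone, 126 bases before the start, and TGGGAA in none of them. Over all 32851 RefSeq windows of the same length, 17.2% held CACCTG and 21.6% held TGGGAA. The windows of Snai1, which was not called, with its E-box in capitals, and of Prrx1 and Zeb2 (the first of 4 start sites), which were both called higher, are printed 5′ to 3′ on the gene's strand. They lie at chr2:167537945-167538194 (plus strand), chr1:163313651-163313900 (minus strand) and chr2:45117443-45117692 (minus strand).
Snai1: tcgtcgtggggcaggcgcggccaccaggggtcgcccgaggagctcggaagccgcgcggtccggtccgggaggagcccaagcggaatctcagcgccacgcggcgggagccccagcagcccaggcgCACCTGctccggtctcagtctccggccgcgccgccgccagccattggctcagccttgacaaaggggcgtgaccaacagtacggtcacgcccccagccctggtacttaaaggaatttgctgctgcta
Prrx1: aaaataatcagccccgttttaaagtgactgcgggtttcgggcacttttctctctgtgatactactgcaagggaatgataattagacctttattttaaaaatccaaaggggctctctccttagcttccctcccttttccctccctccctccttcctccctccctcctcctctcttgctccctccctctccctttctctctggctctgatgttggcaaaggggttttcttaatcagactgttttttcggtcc
Zeb2: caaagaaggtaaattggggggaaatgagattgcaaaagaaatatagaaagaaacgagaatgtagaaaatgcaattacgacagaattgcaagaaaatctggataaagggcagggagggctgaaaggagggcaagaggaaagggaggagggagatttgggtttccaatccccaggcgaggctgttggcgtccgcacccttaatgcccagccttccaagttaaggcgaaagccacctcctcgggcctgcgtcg

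Among the Snail family, Snai2 (Slug), which represses E-cadherin and marks migrating neural crest, showed the largest change of the 8. Ordered from Set 1 to Set 4, here and below, its level was 463, 586, 438 and 358 normalised counts in Control and 2312, 1092, 2864 and 2818 in Notch3IC. The groups did not overlap, and the lowest Notch3IC value was that of Set 2. Snai2 rose 4.93-fold (95% confidence interval 3.04 to 7.99), a log2 fold change of 2.30 ± 0.31 (SE, n = 4 per group, edgeR quasi-likelihood test with Benjamini-Hochberg adjusted p = 0.0169). The rise remained past the threshold when any 1 of the 8 libraries was left out, but not when both libraries of Set 3 (adjusted p = 0.221, edgeR) or of Set 4 (adjusted p = 0.221) were left out, where the fit of 3 against 3 libraries called 1 gene and 0 genes higher in the whole table. Snai2 lies on chromosome 16 at 14705852-14709385 in GRCm38 (GENCODE M21), and 0.963% of its 50-base words recur in other genes.

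Snai1 (Snail), the other expressed member, behaved differently. Its level was 1008, 426, 468 and 417 normalised counts in Control and 1109, 697, 715 and 704 in Notch3IC. Both libraries of Set 1 were the highest of their group and the groups overlapped through the Control library of Set 1. The log2 fold change was 0.48 ± 0.31 and did not pass the threshold (edgeR, adjusted p = 0.478, 95% confidence interval -0.24 to 1.19). With the set as a block, so that each Notch3IC line was compared with its own Control, the log2 fold change was 0.55 ± 0.12 (edgeR, adjusted p = 0.0407), still under the fold limit. The within-set ratios were 0.14, 0.71, 0.61 and 0.75 on the log2 scale. Leaving out libraries moved the log2 fold change from 0.29 without the Notch3IC library of Set 1 (edgeR, adjusted p = 0.615) to 0.88 without the Control library of Set 1 (adjusted p = 0.0585), and the adjusted p was under 0.1 in 2 of 12 such fits. Snai1 lies at chr2:167538195-167542814, and none of its 50-base words recurs in another gene.

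Snai3, the third family member, had 6 counts in all over the 4 Control libraries and 3 over the 4 Notch3IC libraries, with 2, 0, 2 and 2 and 1, 2, 0 and 0 counts by set. At this depth no level and no difference can be given for it. Its counts did not reach the expression filter of the main fit, and the fit without a filter gave an adjusted p of 0.788 (edgeR).

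Of the 2 Zeb factors, Zeb2 was called. Its level was 2206, 1877, 1914 and 1743 normalised counts in Control and 4852, 2192, 6080 and 5350 in Notch3IC. The Notch3IC library of Set 2 lay just under the Control library of Set 1, and the other 3 Notch3IC libraries were above all Control libraries. It rose 2.39-fold (95% confidence interval 1.54 to 3.70), a log2 fold change of 1.26 ± 0.28 (edgeR, adjusted p = 0.0486). The call was lost when the Control or Notch3IC library of Set 3 or of Set 4 was left out singly (adjusted p = 0.147, 0.163, 0.129 and 0.150 for Control 3, Control 4, Notch3IC 3 and Notch3IC 4, edgeR) and when both libraries of Set 1, Set 3 or Set 4 were (adjusted p = 0.111, 0.336 and 0.430), while the log2 fold change stayed between 1.09 and 1.49 in all such fits. Without the Notch3IC library of Set 2 it was 1.49 (edgeR, adjusted p = 0.000722). Zeb2 lies at chr2:44983632-45117395, and 3.27% of its exon bases overlap Zeb2os on the other strand.

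Zeb1 did not overlap between the groups but missed the threshold. Its level was 788, 699.6, 731 and 742 normalised counts in Control and 1669, 906, 966 and 1136 in Notch3IC. The Control libraries were close to each other and the highest Notch3IC library was that of Set 1. The log2 fold change was 0.66 ± 0.19 (edgeR, adjusted p = 0.102), and 0.62 ± 0.13 with the set as a block (edgeR, adjusted p = 0.0381), again under the fold limit.

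The Twist factors pattern the mesoderm and skull, and neither was called. Twist1 stood at 200, 180, 184 and 159 normalised counts in Control and 195, 186, 191 and 183 in Notch3IC. The groups overlapped in full, and Notch3IC was higher in 3 of 4 sets. The log2 fold change was 0.06 ± 0.13 (edgeR, adjusted p = 0.856), and its 95% confidence interval of -0.24 to 0.36 lay inside the fold limit on both sides. Twist2 stood at 427, 364, 286 and 375 in Control and 559, 419, 581 and 569 in Notch3IC. The groups overlapped only through the Notch3IC library of Set 2 and the Control library of Set 1, and the log2 fold change of 0.55 ± 0.16 missed the threshold (edgeR, adjusted p = 0.103). With the block it was 0.56 (edgeR, adjusted p = 0.0559), under the fold limit. A reading of Twist2 is uncertain because 46.5% of its exon bases overlap Gm29100 on the opposite strand, a gene that the tables do not list, and the sources used here do not state whether strand was kept.

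Prrx1, a homeobox factor of limb and craniofacial mesenchyme, had the second largest change of the 8. Its level was 1632, 5154, 2229 and 2254 normalised counts in Control and 5106, 7854, 15149 and 15556 in Notch3IC. The Control library of Set 2 was the highest of its group and lay just above the Notch3IC library of Set 1, so that the groups overlapped by this pair of values, while Notch3IC was higher within each of the 4 sets. Prrx1 rose 3.88-fold (95% confidence interval 1.86 to 8.09), a log2 fold change of 1.95 ± 0.47 (edgeR, adjusted p = 0.0604). The call was lost without the Control library of Set 3 or Set 4 (adjusted p = 0.177 and 0.192, edgeR) or the Notch3IC library of Set 3 or Set 4 (adjusted p = 0.161 and 0.178), with log2 fold changes of 1.74 to 1.86. It was also lost without both libraries of Set 3 (1.66, adjusted p = 0.403) or Set 4 (1.65, adjusted p = 0.496) and at an adjusted p under 0.05. Without both libraries of Set 2 the log2 fold change was 2.55 (edgeR, adjusted p = 0.0212). Prrx1 lies at chr1:163245119-163313710 on the minus strand.

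Foxc2, a forkhead factor of mesoderm and lymphatic vessels, was near the detection limit in Control. It had 4, 3, 3 and 1 counts in the Control libraries and 49, 5, 30 and 48 in the Notch3IC libraries. Every Notch3IC library was above every Control library after normalisation (7.33 or more against 3.97 or less), and Set 2 was again the lowest of the Notch3IC libraries. The summed counts, 132 against 11, gave a ratio of 12.9 per library size, with an exact binomial 95% interval of 7.01 to 26.6 that covers counting error only. Foxc2 was below the expression filter of the main fit. In the fit without a filter its log2 fold change was 3.53 ± 0.67 (edgeR, adjusted p = 0.0285), and DESeq2 gave 3.56 ± 0.77 (adjusted p = 0.000142).

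Vim was by far the most abundant of the genes. Its level was 85636, 41276, 31942 and 34024 normalised counts in the Control libraries and 104889, 51962, 49548 and 53509 in the Notch3IC libraries. Both Set 1 libraries were the highest of their group, and the groups overlapped through the Control library of Set 1, while Notch3IC was higher within each set. The log2 fold change was 0.43 ± 0.38 without the block (edgeR, adjusted p = 0.613, 95% confidence interval -0.44 to 1.30). With the block it was 0.48 ± 0.09 (edgeR, adjusted p = 0.0327, interval 0.26 to 0.70), a difference of less than the fold limit with the within-set ratios at 0.29, 0.33, 0.63 and 0.65. With the block, the adjusted p was 0.126, 0.155 and 0.152 (edgeR) without Set 1, Set 3 or Set 4, and 0.0107 without Set 2. In the fit without the block, leaving out the Notch3IC library of Set 1 gave 0.11 (edgeR, adjusted p = 0.873) and leaving out the Control library of Set 1 gave 0.86 (adjusted p = 0.155). Of 12 such fits, 1 had an adjusted p under 0.1, the fit without both libraries of Set 1 (0.53 ± 0.11, adjusted p = 0.0709). Vim lies at chr2:13573927-13582826, and none of its 50-base words recurs in another gene.

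**Figure D2:**
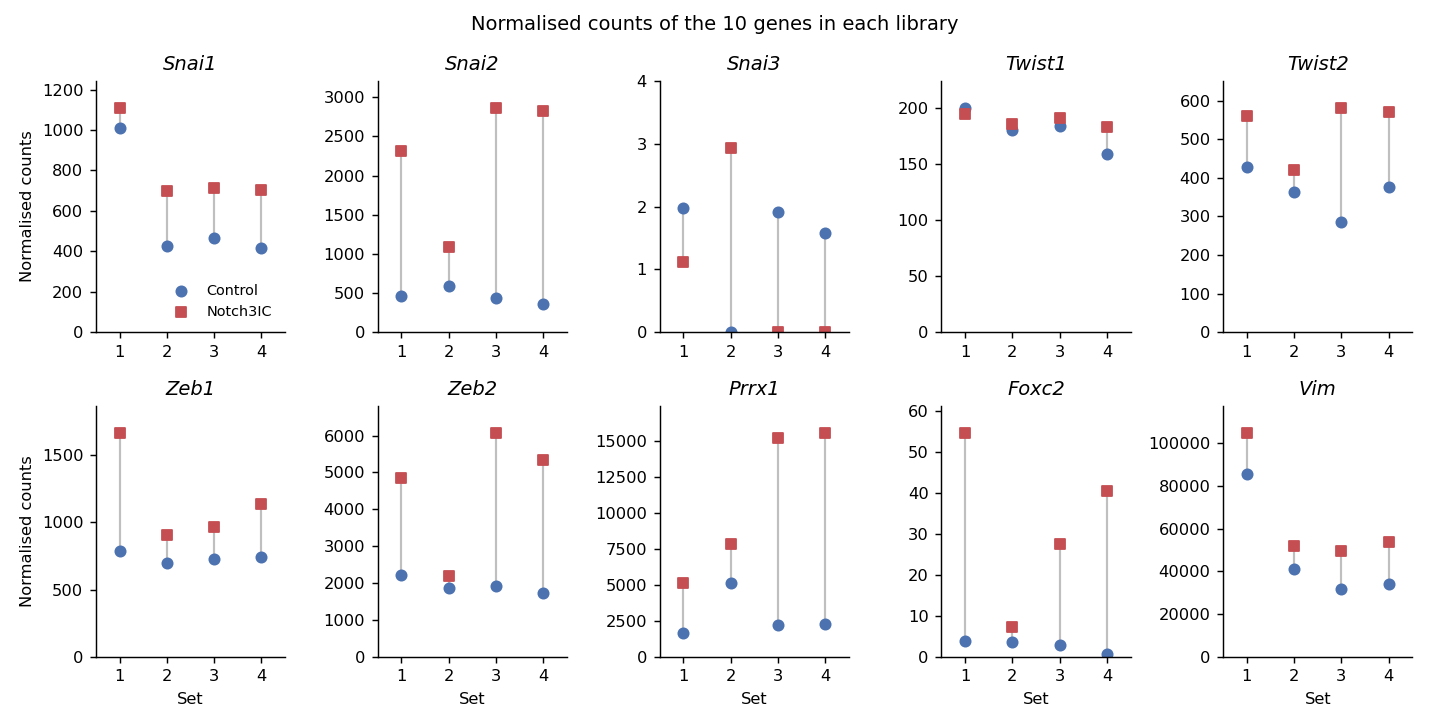
Each panel shows 1 gene, with Sets 1 to 4 on the horizontal axis and normalised counts from 0 on the vertical axis. Circles are Control and squares Notch3IC libraries of a set, joined by a grey line. Snai2, Zeb2 and Prrx1 show a gap that is narrowest in Set 2, Snai1 and Vim are shifted upward in both libraries of Set 1, and the symbols of Twist1 nearly coincide in Sets 1 to 3.

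The sets did not contribute equally. The median log2 ratio of the 8 tested genes was 0.73, 0.35, 0.83 and 0.70 in Sets 1 to 4, against -0.01, 0.01, -0.01 and 0.00 for all genes tested. The smallest of the 4 set ratios was that of Set 2 for 5 of the 8 genes (Snai2, Twist2, Zeb1, Zeb2 and Prrx1) and that of Set 1 for the other 3 (Snai1, Twist1 and Vim). Set 2 is also the set with the lowest Notch3 level in its Notch3IC library. With 1 library of each kind in a set, the difference between sets could not be tested, and the part of the Notch3 level in it was not tested.

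Levels of different genes were compared per kilobase of annotated exon, which takes the length of all exons of a gene together (GENCODE M21) and so lowers genes with long alternative exons such as Zeb2. On this scale Vim had a mean of 10167 ± 5326 normalised counts per kb in Control and 13700 ± 5620 in Notch3IC (SD, n = 4), the 33rd and 24th highest of 11249 genes. In Control, Snai1, Prrx1 and Snai2 followed with 358, 255 and 228 per kb, and their ranges overlapped. Twist2, Twist1 and Zeb2 were next with 114, 111 and 97.0 per kb and also overlapped, and Zeb1 at 72.1 per kb lay below the lowest library of each of them. In Notch3IC the order was Snai2 with 1124 per kb, Prrx1 with 986, Snai1 with 498, Zeb2 with 232, Twist2 with 168, Twist1 with 116 and Zeb1 with 114. This order is that of the means. The ranges of Snai2, Prrx1 and Snai1 overlapped in these libraries too. The range of Zeb2 overlapped those of Twist2, Twist1 and Zeb1, and that of Zeb1 overlapped both Twist genes. The change in rank was thus greatest for Snai2, from 4838th to 980th, and Prrx1, from 4491st to 1162nd. Foxc2 did not exceed 20.1 per kb and Snai3 1.80 per kb in any Notch3IC library, both under the median of 179 per kb over the genes ranked.

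**Figure D3:**
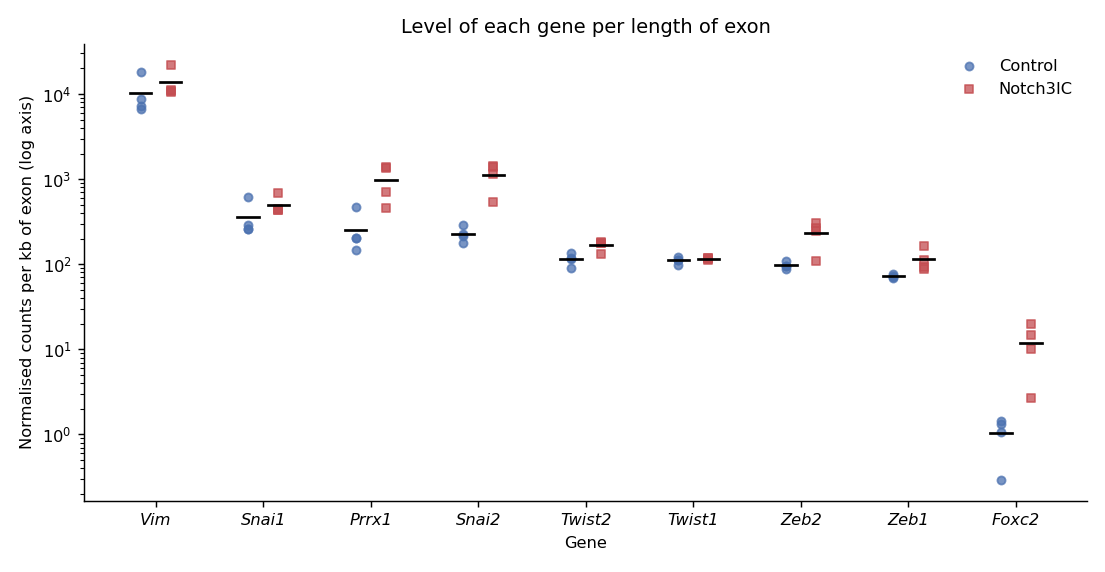
The vertical log axis gives normalised counts per kb of exon, with 4 Control libraries (circles) and 4 Notch3IC libraries (squares) for each gene and a black line at the group mean. Vim lies above all other genes in every library, Snai2 and Prrx1 have higher means than Snai1 in Notch3IC, and Foxc2 is the lowest gene drawn. Snai3 was left out because 3 libraries had no count.

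The genes whose pattern over the 8 libraries was most like that of Snai2, by the root mean square difference of centred log2 values among 11039 genes, were Cd276 (0.163), S1pr1 (0.165) and Ank1 (0.213). Being chosen for this pattern, all 3 had lower levels in every Control library than in any Notch3IC library and the lowest Notch3IC level in Set 2. The genes most like Vim were Chpf (0.154), Itpripl2 (0.158) and Tpm2 (0.159), which by the same choice shared the high Set 1 libraries. Tpm2 encodes a tropomyosin of the actin cytoskeleton.

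Other transcription factors linked to mesenchymal transition were taken as a list of 17, of which 11 could be tested. Of these, 2 rose and 0 fell in edgeR and in DESeq2 (4 higher and 0 lower at an unadjusted p under 0.05 in edgeR), with a median log2 fold change of 0.49. For this list and those below, edgeR called 3.4% of all genes tested higher and 0.74% lower, or 423 and 92 of 12430. With the block it called 645 of these genes higher and 315 lower. DESeq2, run without the expression filter, called 708 and 192. Without the Notch3IC library of Set 2, edgeR called 702 and 305. Counts of a list under these fits stand beside those larger totals. At an unadjusted p under 0.05, 11.8% of all genes were higher and 6.65% lower. Foxc1, the paralog of Foxc2, rose 2.49-fold (log2 fold change 1.32 ± 0.23, edgeR, adjusted p = 0.0275). The T-box repressor Tbx2 rose 8.90-fold, from 58.5, 75.2, 33.5 and 36.5 normalised counts in Control to 275, 117, 695 and 711 in Notch3IC (log2 fold change 3.15 ± 0.59, edgeR, adjusted p = 0.0325). With the block 3 rose and Foxq1 fell (log2 fold change -1.0, edgeR, adjusted p = 0.0983). The 2 calls became 0 without Control 3 or Control 4 and 1 without Notch3IC 4, where the number is that of the set.

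The E proteins that pair with Twist factors and the Id proteins that sequester E proteins formed a list of 7 genes, all tested. Of these, 3 rose, and none fell in edgeR, DESeq2 or the block fit (4 higher and 0 lower at an unadjusted p under 0.05). Tcf4, the E protein E2-2, rose 2.80-fold (log2 fold change 1.49 ± 0.23, edgeR, adjusted p = 0.0217). Its most abundant relatives Tcf12 and Tcf3 had log2 fold changes of 0.30 ± 0.09 (adjusted p = 0.118, edgeR) and 0.17 ± 0.17 (adjusted p = 0.655). Id3 rose 2.60-fold, with 6112, 4213, 15112 and 10085 normalised counts in the Notch3IC libraries against 2959 to 3916 in Control, and Id4 rose from 7.93, 7.16, 7.66 and 3.96 to 91.7, 10.3, 138 and 172 (log2 fold change 3.95 ± 0.76, edgeR, adjusted p = 0.0359). With at least 10 counts required in every library, 6 were tested and 2 rose, since Id4, low in Control, was left out. The 3 calls of the main fit became 0 without Control 3, 1 without Control 4 or Notch3IC 4 and 2 without Control 1, Control 2 or Notch3IC 3.

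Corepressors and chromatin enzymes that Snail and Zeb factors recruit showed no called member. Of 16 tested, 0 passed the threshold in either direction in edgeR or DESeq2, nor an unadjusted p under 0.05 in edgeR, and their median log2 fold change was 0.09. Smarca4, the most abundant, had a log2 fold change of 0.02 ± 0.17, and the methyltransferase gene Ehmt2 had 0.08 ± 0.11. The kinases and ubiquitin ligases that act on Snail, Twist or Zeb proteins gave 0 calls among 15 tested in both tools (1 higher and 1 lower at an unadjusted p under 0.05 in edgeR), with a median of 0.06, and the COP9 signalosome gene Cops2, the most abundant, had -0.05 ± 0.10, and the ubiquitin ligase gene Fbxw11 had 0.10 ± 0.09. Protein levels were not measured by these data.

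Of 13 genes of the TGF-beta pathway, an extracellular input to these factors, 3 rose and none fell in edgeR, DESeq2 or the block fit (4 higher and 0 lower at an unadjusted p under 0.05), and the median log2 fold change was 0.20. The ligand Tgfb2 rose 3.20-fold (log2 fold change 1.68 ± 0.31, edgeR, adjusted p = 0.0316), the ligand Tgfb1 2.82-fold (1.49 ± 0.34, adjusted p = 0.0508) and the receptor kinase Tgfbr1 2.36-fold (1.24 ± 0.27, adjusted p = 0.0468). For all 3 the Notch3IC library of Set 2 was the lowest of its group. The most abundant ligand, Tgfb3, had a log2 fold change of 0.13 ± 0.29 (edgeR, adjusted p = 0.864). The 3 calls became 0 without Control 3 or Control 4 and 1 without Notch3IC 3 or Notch3IC 4. The list's median was 0.14 without Control 4 and 0.32 without Control 2.

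Epithelial junction, polarity and keratin genes and their activators, many of them repressed by Snail or Zeb factors, made a list of 37. Only 16 of the 36 genes listed in the tables could be tested, since most were near 0 in both groups. Among them 14 of 16 had a log2 fold change under 0, and the median was -0.73 (all genes tested, -0.01). In edgeR 1 fell, against 6 with the block, where 92 and 315 of all genes tested fell. At an unadjusted p under 0.05 in edgeR, 9 were lower and 0 higher. DESeq2, run without the filter, called 5 lower and 1 higher. The gene that fell was Rbm47, an RNA-binding protein of epithelia, with 411, 438, 922 and 864 normalised counts in Control and 138, 290, 215 and 222 in Notch3IC (log2 fold change -1.61 ± 0.33, edgeR, adjusted p = 0.0422). This call was lost without Control 3, Control 4, Notch3IC 3 or Notch3IC 4, while the number of genes called lower was 2 without Control 1, 5 without Notch3IC 2 and 3 without both libraries of Set 2. The P-cadherin gene Cdh3 had -0.75 ± 0.17, past the p threshold (edgeR, adjusted p = 0.0497) but under the fold limit. The next genes were named after their values were seen. Cdh1, the E-cadherin gene and textbook target of Snail factors, had 117, 598, 360 and 638 in Control and 61.5, 517, 390 and 265 in Notch3IC. The groups overlapped (log2 fold change -0.48 ± 0.65, edgeR, adjusted p = 0.764). Krt19 had a log2 fold change of -2.12 ± 0.65 (edgeR, adjusted p = 0.124) without the block and -2.10 (adjusted p = 0.0288) with it. Grhl3, a grainyhead factor below the filter, was the gene that DESeq2 called higher, with 2, 2, 1 and 3 counts in Control and 5, 3, 39 and 13 in Notch3IC (adjusted p = 0.0280).

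Mesenchymal adhesion, matrix and contractile genes made a list of 40, of which 36 were tested. Of these, 8 rose and 0 fell in edgeR, 12 and 0 in DESeq2, and 16 and 1 with the block (14 higher and 0 lower at an unadjusted p under 0.05), and the median log2 fold change was 0.83, with 31 of 36 above 0. The median was 0.34 without Notch3IC 1 and 0.53 without Control 4. With at least 10 counts required in every library, 31 were tested, 6 rose and the median was 0.68. Postn and Fap, low in Control, were left out of that fit. The matrix gene Postn (periostin) stood at 63.5, 13.1, 7.66 and 3.17 normalised counts in Control and 4071, 278, 1274 and 1682 in Notch3IC (log2 fold change 6.40 ± 1.08, edgeR, adjusted p = 0.0250). The receptor Pdgfrb, a mural and fibroblast gene, went from 94.2, 205, 33.5 and 29.3 to 3472, 1839, 7749 and 9514. The serine protease Fap had 5.97 or fewer normalised counts in every Control library and 198, 42.5, 945 and 1173 in Notch3IC. Tnc rose 5.12-fold (log2 fold change 2.36 ± 0.50), and by 3.08 on the log2 scale without the Control library of Set 2. Fbn1 rose 2.95-fold, the cadherin Cdh11 2.50-fold, Col3a1 2.46-fold and the protease Mmp14 2.41-fold. The fitted log2 fold changes of other genes also moved with 1 library, to 7.91 for Postn without Control 1 and 5.66 without Notch3IC 1, and to 6.76 for Pdgfrb (from 5.99) without Control 2. The 8 calls became 1 without Control 3, 2 without Control 4, 5 without Notch3IC 3, 4 without Notch3IC 4 and 12 without Notch3IC 2. The most abundant genes, Fn1 and Col1a1, had log2 fold changes of 1.09 ± 0.34 and 1.01 ± 0.35 and were not called (edgeR, adjusted p = 0.134 and 0.166), and the N-cadherin gene Cdh2, named after its values were seen, had 0.08 ± 0.20.

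**Figure D4:**
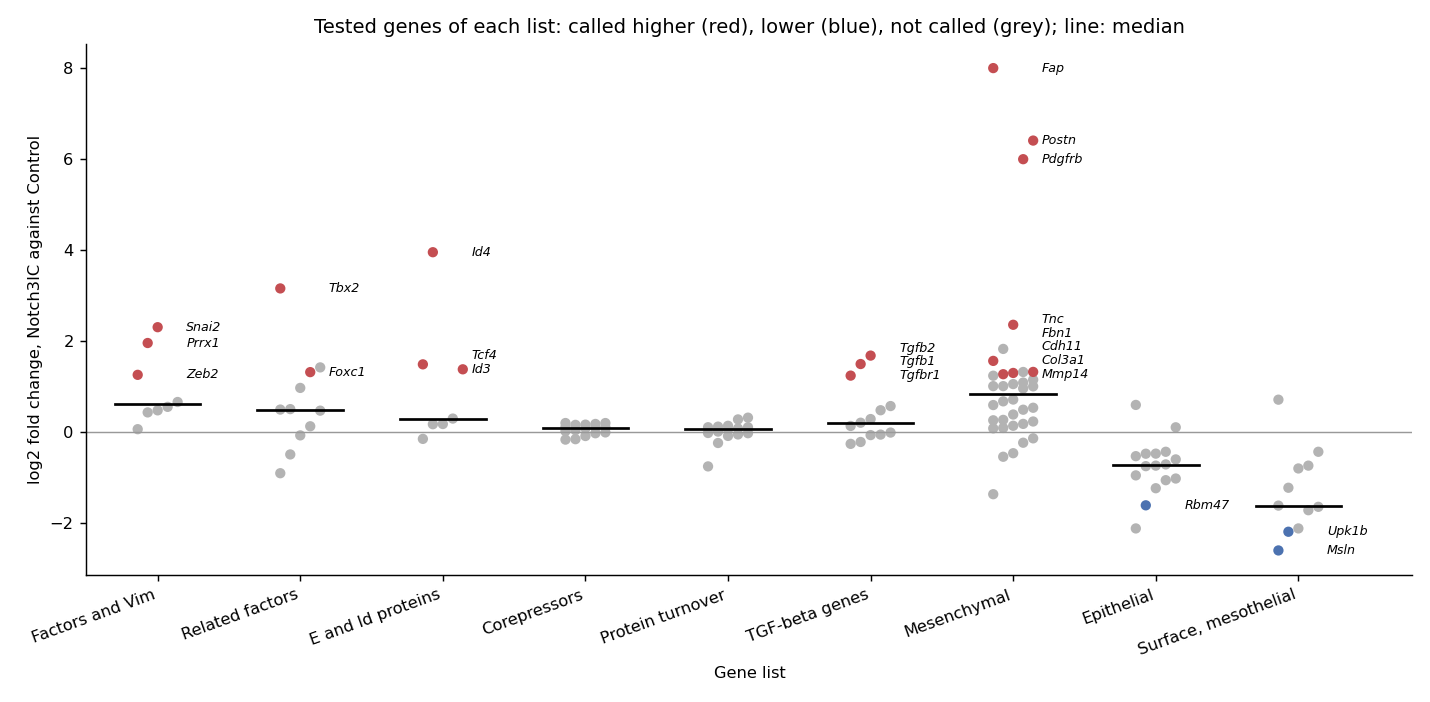
Each dot is the log2 fold change of 1 tested gene (vertical axis), by list, with red for called higher, blue for called lower, grey for not called and a black line at the list's median. Labels name the called genes. The corepressor and turnover lists lie close to 0, the mesenchymal list has a median of 0.83, and the epithelial and surface lists have medians of -0.73 and -1.62. Krt8, Krt18 and Krt19 are drawn in both the epithelial and the surface list.

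Intermediate filaments other than keratins and proteins that bind vimentin gave 1 call among 11 tested and a median of -0.06. The sign of this median changed with single libraries, from -0.12 without Notch3IC 1 to 0.21 without Control 1. The called gene was Nes (nestin), a partner of vimentin in filaments, with 200, 44.2, 198 and 110 normalised counts in Control and 1928, 135, 1496 and 1428 in Notch3IC (log2 fold change 3.17 ± 0.76, edgeR, adjusted p = 0.0625). The Notch3IC library of Set 2 was below 2 Control libraries, and the call was lost without Control 2, Control 3, Control 4, Notch3IC 1, Notch3IC 3 or Notch3IC 4. Lmna and Flna, the most abundant, had log2 fold changes of 0.08 ± 0.28 and 0.17 ± 0.22.

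Called genes were also found in lists of cell type markers, and their part in these results was not tested. In bulk libraries, more cells of a type and more RNA per cell cannot be told apart. Of 12 markers of ovarian surface epithelium and mesothelium, 11 were tested and 2 fell, Msln (log2 fold change -2.60 ± 0.63, edgeR, adjusted p = 0.0625) and Upk1b (-2.19 ± 0.56, adjusted p = 0.0762), against 7 with the block. Krt7, Krt8, Krt18 and Krt19 are also in the epithelial list, so these lists are not separate observations. DESeq2 called 4 of the 11 lower, and 5 of all 12 without the filter. At an unadjusted p under 0.05 in edgeR, 5 of the 11 were lower and 1 higher. Both calls were lost without Control 3, Control 4, Notch3IC 3 or Notch3IC 4, and 1 of them without Control 2. The number called lower was 4 without Notch3IC 2, where Upk1b had -2.92, and 6 without both libraries of Set 1. Their summed level was 40899, 68022, 96293 and 91456 normalised counts in Control and 43097, 49247, 48483 and 40102 in Notch3IC. The caveolin gene Cav1 was the most abundant over the 8 libraries, and was itself higher in Notch3IC by 0.71 ± 0.25 on the log2 scale (edgeR, adjusted p = 0.176). Krt7, below the filter, had 4.96, 2.39, 44.0 and 5.55 normalised counts in Control and 1.84 or fewer in every Notch3IC library.

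Of 13 fibroblast and mural markers, 7 were tested and 3 rose, Pdgfrb, Cspg4 (log2 fold change 4.20 ± 0.57, edgeR, adjusted p = 0.0169) and Mcam (3.73 ± 0.61, adjusted p = 0.0248). Pdgfra, Pdgfrb, Dcn, Lum, Col1a1 and Thy1 are also in the mesenchymal list, so these lists are not separate observations. With the block 4 of the 7 rose. DESeq2 called 3 of the 7, and 4 of all 13 without the filter. In edgeR, 2 of 10 tested rose without Control 3 or Control 4, 5 of 10 without Control 1 and 5 of 8 without Notch3IC 2. The summed level was 143603, 106532, 80486 and 64747 in Control and 271821, 133343, 169056 and 204068 in Notch3IC, most of it Col1a1. Pdgfra, a receptor of fibroblasts, had 2252, 7836, 3993 and 4528 in Control and 3024, 7067, 7187 and 8844 in Notch3IC (log2 fold change 0.49 ± 0.41, edgeR, adjusted p = 0.592). Dcn, the matrix proteoglycan decorin, ranged from 575 to 8629, and its groups overlapped, as did those of Pdgfra. Lum and Thy1 did not exceed 3.17 normalised counts in any library. Of 11 endothelial markers, 4 were tested, with Flt1 higher (5.98 ± 0.81, adjusted p = 0.0169) and Esam lower (-1.64 ± 0.39, adjusted p = 0.0596, both edgeR, with Esam not called without Control 3, Control 4 or Notch3IC 4), and a summed level of 637, 971, 1230 and 1257 in Control and 4442, 571, 3944 and 3612 in Notch3IC. Esam was the most abundant in Control, at a mean of 955, and Flt1 in Notch3IC, at 2797. Pecam1 was low in both groups, from 7.93 to 25.1 in Control and 16.6 to 25.3 in Notch3IC (log2 fold change 0.60 ± 0.41, edgeR, adjusted p = 0.487), as was the receptor Kdr, from 3.17 to 13.9 and 8.45 to 24.6 (0.51 ± 0.53, adjusted p = 0.679). Erg and Cldn5 had no count and Cdh5 did not exceed 1.91. Of 17 leukocyte markers, 3 were tested and Csf1r was higher (1.52 ± 0.38, edgeR, adjusted p = 0.0719), a call kept without Control 2 or Notch3IC 2 and lost without any other library. With at least 10 counts required in every library, Csf1r was left out, and of the 2 markers tested 0 were called. The summed level was 174, 201, 181 and 214 in Control and 121, 183, 165 and 198 in Notch3IC. Cd14 was the most abundant, and Ptprc, which all leukocytes express, had no count in 7 of the 8 libraries.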

How the data were processed

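The authors deposited 1 table of counts per library, whole numbers per gene symbol, not normalized, made by their methods from poly-A selected single-end reads with TopHat and Cufflinks and compared with DESeq; the submitters' processing notes name the mm9 build, and versions, annotation and strandedness are not given in the sources used here. Rows of 23284 symbols were read, 17359 of them with at least 1 count. The counts were fitted with edgeR 4.0.16 in R 4.3.3 (TMM, filterByExpr by group, robust quasi-likelihood F test, Benjamini-Hochberg over 12430 genes tested), with calls at an adjusted p under 0.1 and a change of 1 or more on the log2 scale. Standard errors were taken from the F statistic, and ratios within a set used a pseudocount of 0.5. The common biological coefficient of variation was 26.3%, and 14.1% with the set as a block.

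By the methods a set is 1 infection with its own Control, and the set numbers were taken to pair the libraries on that ground. The 2 libraries of a set deviated from their group means together, with correlations of 0.79, 0.41, 0.57 and 0.43 in Sets 1 to 4 (crossed pairs, -0.51 to 0.40). The highest crossed pair was close to the values of Sets 2 and 4, so the correlations alone do not establish the pairing. Alternatives were DESeq2 1.42.0, other normalizations, filters and thresholds, the block, and leaving out libraries. Places, exon lengths and overlaps are from GENCODE M21 on GRCm38, matched by symbol, and promoters from RefSeq. The genes and lists were chosen with earlier results of these data known. The 10 genes are all named; in other lists the called genes, or 2 of the most abundant where none was called, are named, with the 3 genes nearest in pattern to Snai2 and Vim. Abundant genes not called in lists with calls (Cav1, Cd14, Cdh3, Col1a1, Flna, Fn1, Kdr, Lmna, Pdgfra, Pecam1, Runx2, Tcf3, Tcf12 and Tgfb3) and further genes (Cdh1, Cdh2, Cdh5, Cldn5, Dcn, Epcam, Erg, Foxq1, Grhl3, Krt7, Krt8, Krt19, Lum, Ptprc, Thy1, Upk3b and Wt1) were named after their values were seen.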

Additional observations from a re-analysis of the deposited data

Results flagged for a closer look

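In 14 of 126 groups of 4 libraries searched, the highest or lowest library lay far from the other 3 by Dixon's criterion. For 4 independent normal values the criterion is met in about 1 of 20 groups, or 6.3 here. The values searched were not on a log scale, some were near 0, and many genes were chosen because they were called in these data. The 6.3 is therefore no valid reference for the 14. The far library was one of Set 1 in 9 groups, of Set 2 in 4, of Set 3 in 1 and of Set 4 in 0. The groups were the library totals, the genes examined first, and from each list the called genes and the most abundant not called. Each was searched in Control and in Notch3IC. Some searched genes, such as Foxm1, are not named above. Other genes that are named, such as Cdh1, Krt19 and Krt7 (high in the Control library of Set 3), were not searched. The counts thus do not cover every gene named. Genes with shared patterns or pathways are not independent groups. A further 4 such groups belonged to genes chosen for a pattern like that of Vim or Snai2, and these are left out of the counts and given as a description. Values are normalised counts.

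Among the 10 genes, Snai1 was high in both libraries of Set 1, at 1008 in Control (others at most 468) and 1109 in Notch3IC (others at most 715). Vim was high in the Notch3IC library of Set 1 at 104889, where the others did not exceed 53509. Twist2 was low in the Notch3IC library of Set 2 at 419, with the others at 559 or more. Other high values in Set 1 were those of the osteogenic factor Runx2 (4248, Notch3IC), the remodeling ATPase Smarca4 (10034 in Control and 10254 in Notch3IC), Postn (63.5, Control), Flna (66124, Notch3IC), and Kdr (24.6, Notch3IC). The genes chosen as nearest to Vim in pattern, Chpf (2723), Itpripl2 (4388) and Tpm2 (3472), were high in the same Notch3IC library.

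In Set 2 the Notch3IC library was low for Tcf4 (1143) and high for Cdh3 (8707), and the Control library was high for Tnc (3671). Cd276, chosen for its pattern, was at 1878 in the Notch3IC library of Set 2, with the others at 4666 or more. Notch3 itself was high in the Control library of Set 3 at 70.8, with the others at most 42.0.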

How the results depend on the processing

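The log2 fold changes of the 8 tested genes kept their direction in all 192 values under other fits, and 24 of these moved Snai2, Zeb2 or Prrx1 out of the call, all of them with libraries left out. The 29 called genes of the other lists gave 574 values, 0 of them reversed and 147 no longer called, 3 of these with all libraries (Id3, Col3a1 and Mmp14, without a filter and with the block). Of all genes, 423 were called higher and 92 lower. DESeq2 called 708 and 192, the replicate block 645 and 315, and the block without an expression filter, an alternative chosen after seeing the data, 756 and 314. An adjusted p under 0.05 ended the call of Prrx1 and left 48 lower, and no fold limit gave 210 lower. Leaving out libraries gave 0 to 702 genes higher, 0 to 305 lower and 0 to 4 of the 10 genes higher. The largest counts came without the Notch3IC library of Set 2, and the counts, higher and lower, were 75 and 8 with Control 3 left out, 99 and 11 with Control 4, 201 and 29 with Notch3IC 3 and 155 and 16 with Notch3IC 4. Without both libraries of Set 3, 1 gene was higher and 0 lower, and without Set 4, 0 and 0. The cause was not tested.

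The block changed the call of none of the 10 genes and moved list counts as given above. Chosen after seeing the data, the block with Set 1, Set 3 or Set 4 left out called none of the 10 genes, with adjusted p for Snai2 of 0.129, 0.143 and 0.141 (edgeR), and with Set 2 left out it called Snai2, Zeb2, Prrx1 and Foxc2. Foxc2 was also called by DESeq2, without a filter, and without the Control library of Set 1 or Set 2 or the Notch3IC library of Set 2, but was tested and not called without Control 3 or Control 4. In fits with libraries left out, Foxc2 passed the expression filter only through its Notch3IC libraries, with 4 or fewer counts in Control. Those calls are therefore no separate evidence. Low depth limits Snai3, Foxc2 and most epithelial genes.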
